A study of Rattus norvegicus with 24 samples.

Results

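The comparison described here set all 12 heart arrays of rats given solid particles against all 12 arrays of rats given none, which together made up all 24 arrays of the series. Arrays were placed on either side by their titles alone, and no measured value was used to choose them. The question was whether the solid phase of instilled particulate matter (PM), whatever its metal content, was accompanied by a common difference in cardiac mRNA. The series consisted of male Wistar Kyoto rats, 12 to 14 weeks old, which were instilled intratracheally once a week under halothane anesthesia and killed 48 hr after the last dose. Portions of the left ventricle plus septum of each rat were hybridized to 1 Affymetrix Rat 230A array, with 4 rats in each of 6 groups.

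Solids were given to the MSH group (Mount St. Helens ash, without water-soluble zinc) and to both groups that received the whole suspension of an oil combustion PM, in which the labels give 14.5 µg/mg of zinc with 3.0 µg/mg of nickel at the high dose (PM-HD) and 7.25 µg/mg with 1.5 µg/mg at the low dose (PM-LD). By the paper, both doses were of the same particle sample. In its design the MSH and PM-HD doses were equal in solid mass, and the PM-LD dose was lower. No solids were given to the saline group, to the group given the filtered soluble fraction of that PM (PM-L), or to the zinc sulfate group, for which the group label gives 14.5 µg/ml of zinc and the protocol another concentration. The paper states an 8-week time point for the saline, MSH, PM-HD, and zinc sulfate arrays, and the number of weeks for PM-LD and PM-L was not given in the sources used here. All rats, controls included, underwent weekly anesthesia and instillation. On each side, 8 of the 12 arrays came from rats that had received soluble zinc, so that the number of arrays with zinc was equal. The dose was not equal, since in the paper's design PM-LD rats received less zinc than the other zinc groups at the same number of weeks. Nickel was not balanced either: it was given in PM-HD and PM-LD on the side with solids and only in PM-L on the other. The 3 pairs of groups that share no array were MSH with saline, PM-HD with PM-L, and PM-LD with zinc sulfate. The third pair differed in zinc dose and in nickel as well as in solids. The numbers in the array titles ran in the order of the groups, apart from 1 saline array with a later number, so that array order and group cannot be told apart.

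Inhaled or instilled particles that do not dissolve are taken up mainly by alveolar macrophages, which release cytokines, whereas soluble metals can pass into the blood and reach the heart directly. Cardiac responses that have been linked to particles include inflammatory mediators and endothelial adhesion molecules, antioxidant and metal-binding proteins, matrix deposition, a shift toward the fetal gene program, and changes in ion channels and energy metabolism. Genes of each of these responses were therefore counted as fixed lists.

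Signals of the 4 ventricular markers Myl2, Myh6, Tnnt2, and Tnni3 were at least 19546 on every array, whereas 4 atrial transcripts (Nppa, Myl4, Myl7, and Sln) averaged per array ran from 7.81 to 13.2 on the log2 scale and exceeded 11 on 6 arrays, 2 with solids and 4 without. RNA quality was read from the control probe sets at both ends of Gapdh, and their 3′/5′ ratio ran from 1.22 to 4.81 with solids and from 1.11 to 5.62 without, and exceeded 3 on 9 arrays, 5 with solids and 4 without. The mean log2 Gapdh ratio was 1.28 ± 0.69 (SD, n = 12) with solids and 1.15 ± 0.88 without, a difference of 0.13 (permutation test, two-sided, p = 0.683, adjusted p = 0.826 over 6 array measures). The atrial mean was 9.63 ± 1.52 with solids and 9.82 ± 1.89 without (permutation p = 0.783, adjusted p = 0.826). The lowest p of the 6 measures was that of the hexokinase 3′ to 5′ ratio (lower by 0.26 on the log2 scale with solids, permutation p = 0.294). High and low arrays therefore lay on both sides, and the 2 sides overlapped in both measures.

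**Figure D1:**
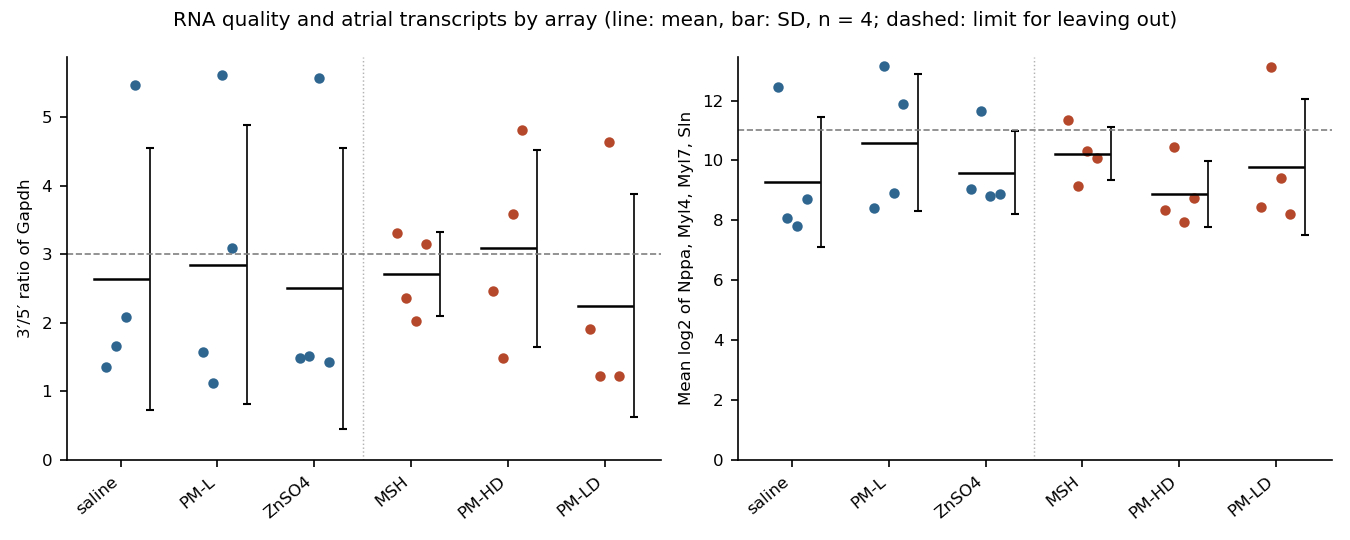
The 3′/5′ signal ratio of Gapdh (left) and the average log2 level of 4 atrial transcripts (right) for each array, by group; blue points are groups without solids and red points groups with solids, lines are means, and bars are SDs. Arrays above the dashed limits of 3 and 11 occur on both sides, and the spread within groups is larger than the difference of 0.13 between the sides in the log2 Gapdh ratio.

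No probe set differed between hearts exposed to solids and hearts not exposed to solids after adjustment for multiple testing. Of 15866 probe sets, 394 (2.48%) passed the thresholds of the study (called), which were unadjusted p under 0.05 with a signal more than 25% higher or more than 25% lower. Of these, 239 (1.51%) were higher and 155 (0.977%) were lower with solids. None passed an adjusted p under 0.05 (limma, Benjamini-Hochberg), and the lowest adjusted p was 0.511. At unadjusted p under 0.05 there were 668 probe sets, compared with 793.3 that 5% of all probe sets comes to. The median fold of called probe sets was 1.41 for those higher and 0.671 for those lower, and 8 were called with more than a 2-fold difference. The fold limits are not symmetric on the log scale: with the lower limit at a fold of 0.8, 239 were higher and 208 lower. Differences were fewer among bright probe sets, of which 0.857% were called, than among those dimmer than the median probe set (a signal of 231), of which 4.11% were called. There was no probe set for which the 12 arrays with solids and the 12 without did not overlap (0 of 15866). The split into solids and no solids accounted for 3.94% of the variance of all log2 values, less than the 4.35% that 1 of 23 equal shares comes to. Soluble zinc accounted for 4.67% and the log2 Gapdh ratio for 22.2%.

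The probe sets with the lowest p for solids were Crlf2 and Swi5, both higher, and a probe set of Col2a1, which was lower. Crlf2 encodes a subunit of the thymic stromal lymphopoietin receptor. Its signal was between 50.2 and 114 with solids (median 74.4) and between 18.4 and 62.9 without (median 41.7). All 12 arrays with solids were above the median of those without, 7 were above the highest of them, and 9 arrays without solids were below the lowest with solids. Mean signals of Crlf2 were 67.2 ± 18.7 (SD, n = 4) for MSH, 78.1 ± 19.7 for PM-HD, and 76.6 ± 30.2 for PM-LD, compared with 40.6 ± 10.1 for saline, 43.4 ± 18.5 for PM-L, and 38.8 ± 15.3 for zinc sulfate. The 3 groups with solids therefore had the 3 highest means. The log2 difference was 0.63 (SE 0.13, adjusted p = 0.511 from limma), and it was called without each array in turn and under every one of 17 other settings that gave it a value. Crlf2 was chosen for its low p on these same arrays, which favors keeping the call, so this is not independent evidence of a difference. The probe set is dim, brighter than 19.6% of all probe sets.

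Swi5, a DNA repair gene, was 1.41-fold higher with solids. Its signal lay between 782 and 1233 with solids (median 960) and between 362 and 1070 without (median 724). Group means were 1073 ± 117 for MSH, 953 ± 109 for PM-HD, and 895 ± 83.4 for PM-LD, compared with 934 ± 152 for saline, 509 ± 123 for PM-L, and 690 ± 125 for zinc sulfate. All 12 arrays with solids exceeded the median of those without, but the saline mean was higher than that of PM-LD. The log2 difference was 0.50 (SE 0.10, adjusted p = 0.511 from limma). It was 0.90 between PM-HD and PM-L, 0.38 between PM-LD and zinc sulfate, and 0.22 between MSH and saline, and the call was lost without the PM-HD and PM-L arrays.

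Col2a1, a cartilage collagen gene, was represented by 2 probe sets that disagreed. The dimmer of them had signals from 3.4 to 38.9 with solids (median 10.1) and from 3.5 to 102 without (median 56.6). All 12 arrays with solids were below the median of those without, and 8 arrays without solids were above the highest with solids. The other 4 arrays without solids were saline replicate 2 at 3.5, saline replicate 1 at 31.0, zinc sulfate replicate 3 at 32.9, and zinc sulfate replicate 1 at 36.0. The log2 difference was −1.21 (SE 0.25, adjusted p = 0.511 from limma), with −0.74, −1.55, and −1.35 in the MSH, PM-HD, and PM-LD pairs. Without saline replicate 2 the log2 difference was −1.38 and the adjusted p was 0.0334, the only probe set past that limit for solids when any 1 array was left out. The brighter probe set of the gene was higher with solids by a log2 difference of 0.40 (SE 0.34) and was not called. Col2a1 was described after its values were seen.

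**Figure D2:**
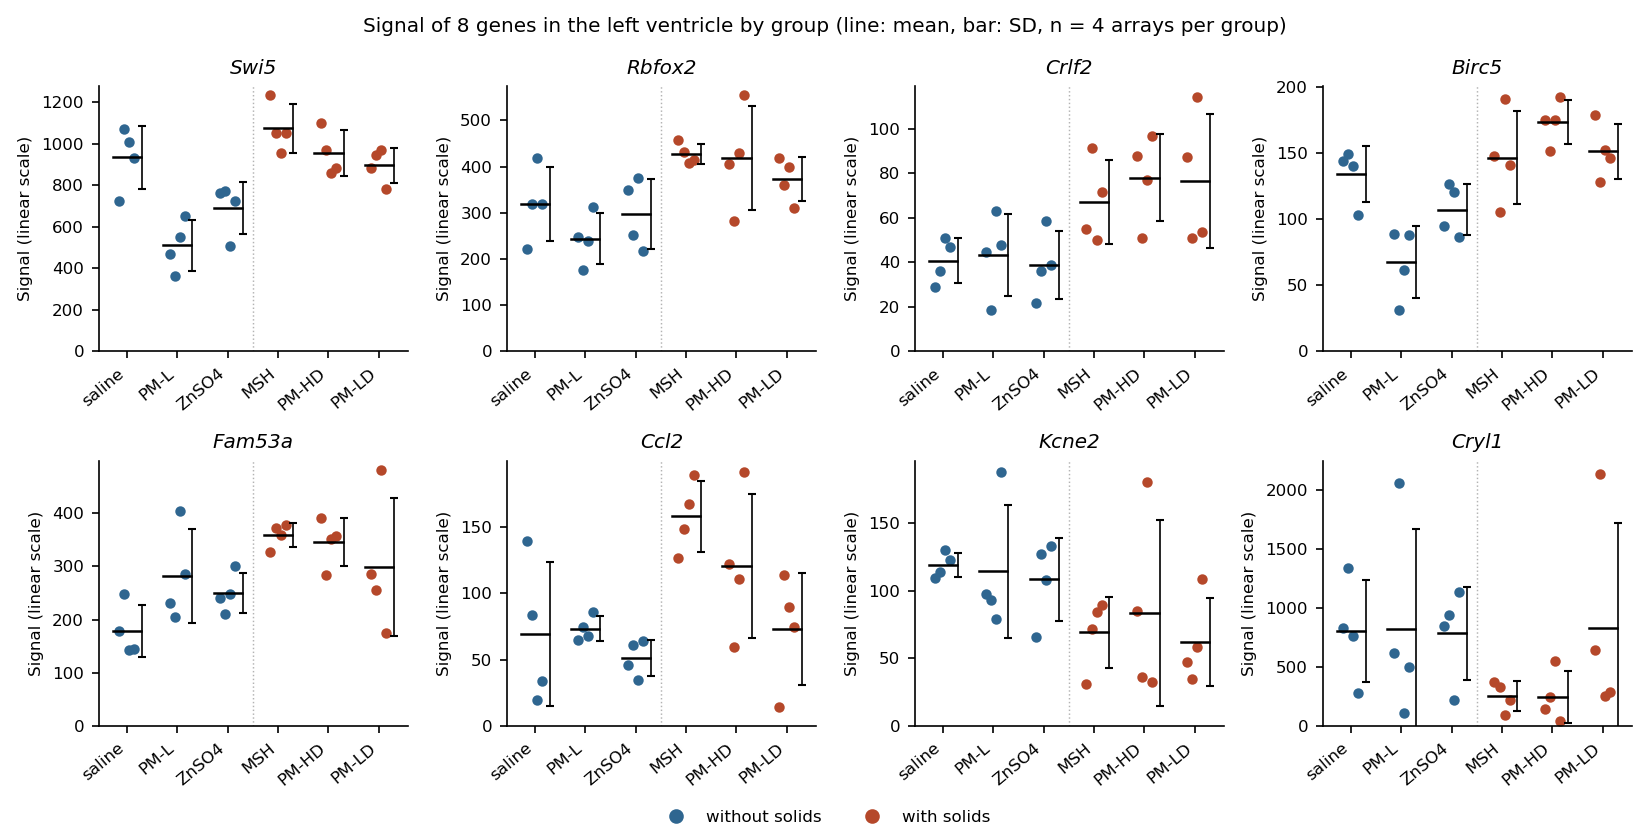
Signal (linear scale) of 8 genes in each array by group, without solids in blue (saline, PM-L, and zinc sulfate, written ZnSO4) and with solids in red (MSH, PM-HD, and PM-LD); lines are means and bars SDs of 4 arrays, and bars that would pass below 0 end at the axis. Crlf2 has its 3 highest means in the groups with solids, the difference of Swi5 and Birc5 is largest against PM-L (means of 509 and 67.4), and that of Fam53a is largest against saline (179).

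Bright genes that were called and had the same sign in all 3 pairs were 36 higher and 4 lower, of 6013 bright genes. Since the pooled difference is the mean of the 3 pair differences, the call itself favors a shared sign. Only the 10 largest in each direction were described, and these included the 4 that were lower. Rbfox2, a regulator of alternative splicing in heart muscle, was called under all settings and without each array in turn. Its selection as a called gene on these same arrays favors that outcome. Its signal was 282 to 556 with solids (median 411) and 177 to 418 without (median 283), and 5 arrays with solids were above the highest array without. Group means were 428 ± 22.2 for MSH, 418 ± 112 for PM-HD, and 372 ± 47.5 for PM-LD, compared with 319 ± 80.3 for saline, 244 ± 56.0 for PM-L, and 298 ± 75.5 for zinc sulfate. Hence the 3 means with solids exceeded the 3 without, and the log2 difference was 0.47 (SE 0.11, adjusted p = 0.554 from limma). Rbfox2 was called in the MSH pair (0.39) and in the PM-HD pair (0.75) and not in the PM-LD pair (0.28).

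Several of the largest differences rested mainly on PM-HD against PM-L. Nhsl2 was 0.80 higher on the log2 scale (SE 0.29), with 1.77 between PM-HD and PM-L but 0.34 and 0.29 in the MSH and PM-LD pairs. Its mean signal was 121 ± 101 (n = 4) in PM-L and between 219 and 388 in all other groups. Ddx6, an RNA helicase of mRNA processing bodies, was 0.58 higher (SE 0.20), with 1.02 in that pair. A second probe set of Ddx6 gave only 0.08. Retreg3, which acts in the turnover of endoplasmic reticulum, was 0.47 higher (SE 0.14), Nav1, a microtubule-associated protein, 0.46 higher (SE 0.21), and Nktr, a cyclophilin-related protein, 0.46 higher (SE 0.15), with 0.77, 0.81, and 0.82 in the PM-HD pair. For Nktr, 7 arrays with solids were above the highest without, yet the PM-LD mean (384 ± 167) was close to those of zinc sulfate (363 ± 143), PM-L (396 ± 88.4), and saline (420 ± 133). Without the PM-HD and PM-L arrays, the calls for Nhsl2, Ddx6, Swi5, Retreg3, Nav1, and Nktr were lost, and that of Nav1 was also lost when any of 10 arrays was left out.

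Other differences rested mainly on MSH against saline. Fry, a large microtubule-associated protein, was 0.70 higher (SE 0.31), with 1.69 in the MSH pair but 0.09 and 0.31 in the others. Its mean signal was 346 ± 86.5 (n = 4) in saline and between 1143 and 1394 in the 5 other groups, those without solids included, and its second probe set gave −0.01. The Fry call was lost when any of 12 of the 24 arrays was left out. Fam53a was 0.47 higher (SE 0.13), with a saline mean of 179 ± 48.9, an MSH mean of 359 ± 22.6, and the other 4 means between 250 and 346. Klf10, a zinc-finger transcription factor induced by transforming growth factor β, was 0.46 higher (SE 0.20), with 0.99 in the MSH pair. Its saline mean (272 ± 130) included 1 array at 77.8, saline replicate 4, without which the call was lost. Leaving out MSH replicate 3, PM-HD replicate 3, or zinc sulfate replicate 2 had the same effect.

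The 4 bright genes that were lower with solids in all 3 pairs were Cryl1, Ttc23, Zfp703, and Mplkip. Cryl1, an enzyme of the glucuronate pathway, had signals from 44.4 to 2134 with solids (median 269) and from 109 to 2054 without (median 797), and 11 of 12 arrays with solids were below the median of those without. Group means were 253 ± 125 in MSH and 246 ± 219 in PM-HD, but 829 ± 888 in PM-LD, where 1 array held the highest signal of all 24. The log2 difference was −1.07 (SE 0.48), and the call was lost when any of 13 of the 24 arrays was left out. Ttc23 was lower by 0.53 (SE 0.23), Zfp703, a transcriptional corepressor, by 0.48 (SE 0.19), and Mplkip, a gene of nonphotosensitive trichothiodystrophy, by 0.45 (SE 0.20). The calls for Ttc23 and Mplkip were each lost when any of 9 arrays was left out, and that for Zfp703 without MSH replicate 4 or PM-HD replicate 3. The 3 other probe sets of Mplkip were higher with solids and not called, and the mean of all 4 was 0.06 higher.

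**Figure D3:**
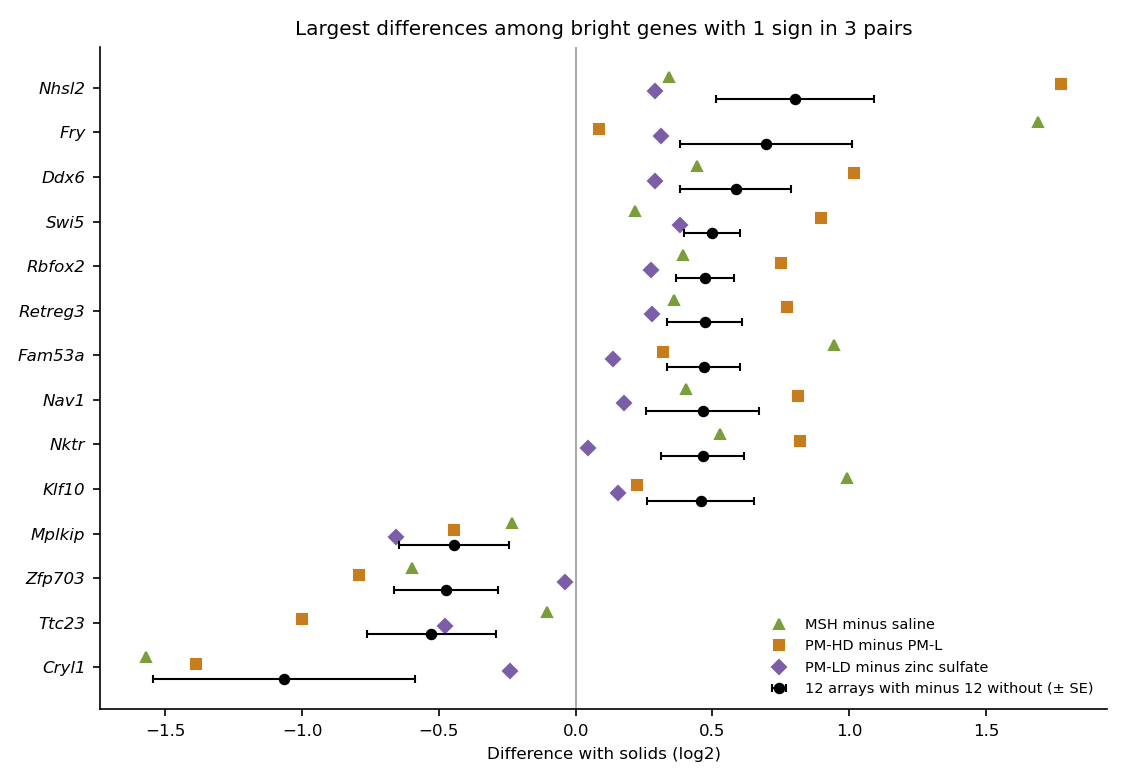
Log2 differences of the 14 bright genes with the largest called differences; triangles, squares, and diamonds are the 3 pairs of groups with 4 against 4 arrays, and black points are the 12 arrays with solids minus the 12 without, with the SE. Nhsl2 has 1.77 in the PM-HD pair and Fry 1.69 in the MSH pair, each far from its other 2 pairs, whereas the values of Rbfox2 lie between 0.28 and 0.75.

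Taken 1 pair at a time, more probe sets passed the study thresholds, fold limits included, than in the pooled comparison. At unadjusted p under 0.05 alone (limma), the MSH, PM-HD, and PM-LD pairs had 535, 713, and 565, compared with 668 in the pooled comparison. MSH compared with saline gave 269 higher (1.7%) and 235 lower (1.48%), or 3.18% of all, PM-HD compared with PM-L 359 higher (2.26%) and 295 lower (1.86%), or 4.12%, and PM-LD compared with zinc sulfate 288 higher (1.82%) and 229 lower (1.44%), or 3.26%. No probe set was called in the same direction in all 3 pairs. MSH and PM-HD pairs shared 24 probe sets in the same direction (4.76% and 3.67% of their calls) and 15 in opposite directions. MSH and PM-LD pairs shared 21 (4.17% and 4.06%), with 15 opposite. PM-HD and PM-LD pairs, both with oil combustion PM, shared 15 (2.29% and 2.90%), with 22 opposite. Of the 394 probe sets called for solids, 99 were called in none of the pairs, 255 in 1, and 40 in 2, and 327 had 1 sign in all 3. The pooled difference is the mean of the 3 pair differences, so these counts are partly fixed by the selection. They do not measure agreement between the pairs, and the share with 1 sign over all probe sets was not counted. Of 214 genes called by their brightest probe set (2.06% of 10411), the difference was largest in the PM-HD pair for 90, in the MSH pair for 70, and in the PM-LD pair for 54.

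Only 1 probe set passed an adjusted p in any pair (0.0063% in the PM-HD pair). Rbms2, which encodes an RNA-binding protein, had by the dimmer of its probe sets signals of 105, 77.4, 124, and 76.5 in the 4 PM-L arrays and 410, 439, 606, and 329 in the 4 PM-HD arrays, without overlap. The log2 difference was 2.06 (SE 0.32, adjusted p = 0.0301 from limma). The means were 400 ± 74.0 in saline and 281 ± 109 in MSH, a log2 difference of −0.59 (SE 0.32), and 319 ± 152 in zinc sulfate and 384 ± 126 in PM-LD, 0.25 (SE 0.32), so that the PM-L arrays were those that stood apart. The dimmer probe set was also called for solids (0.57 higher, SE 0.18). The brighter probe set of Rbms2 differed by only 0.27 between PM-HD and PM-L and was not called for solids. Rbms2 no longer passed with the Gapdh ratio or the atrial mean as a covariate, or when any of 9 arrays was left out (saline replicates 2 and 3, MSH replicate 3, PM-HD replicates 1 to 3, and PM-L replicates 2 to 4).

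The difference with solids was compared between the oil combustion PM and the ash by setting PM-HD minus PM-L against MSH minus saline. Both groups of the first pair, and neither of the second, had received soluble zinc, so that the kind of particle and the presence of soluble metals cannot be told apart in this contrast. There were 209 probe sets (1.32%) with a higher and 247 (1.56%) with a lower difference in the PM-HD pair (2.87% in all), but 0 passed an adjusted p under 0.05 (limma, lowest 0.112), and 457 had unadjusted p under 0.05. Among bright genes, the lowest p was that of Stxbp2, a syntaxin-binding protein of vesicle secretion. It was 0.92 lower in PM-HD than in PM-L and 0.07 higher in MSH than in saline, a difference of −0.98 (SE 0.28). Aph1a, a subunit of γ-secretase, had 0.66 and −0.10 (difference 0.76, SE 0.22). Dbp, a clock-controlled transcription factor, had −1.16 and 0.68 (difference −1.85, SE 0.60), and it also had the lowest adjusted p for soluble zinc. The dim gene Birc5 (survivin, of the chromosomal passenger complex) had 1.28 and 0.03.

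By comparison, the contrast of soluble zinc with no zinc on the same 24 arrays called 365 probe sets higher (2.3%) and 193 lower (1.22%), or 3.52%, with 948 at unadjusted p under 0.05. It had 4 probe sets (0.0252%) at adjusted p under 0.05. These were the clock genes Dbp (higher by 1.86 on the log2 scale), Nr1d1 (1.24), and Nr1d2 (1.16), and the amino acid transporter gene Slc38a2 (−0.46). The count was 1 to 6 when each array was left out in turn, 1 with the replicate block, and 0 without arrays of a Gapdh ratio above 3 or without arrays of an atrial mean above 11. For solids the 4 genes' log2 differences were −0.15, 0.02, −0.02, and 0.11, none of them called.

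Genes of the responses that particles have been linked to did not stand apart from other genes. The 27 lists held 748 measured genes, of which 9 were higher and 3 were lower with solids (1.60%, compared with 2.06% of all 10411 genes, of which 1.26% were higher and 0.797% lower), and 18 lists held no called gene. List medians ran from −0.07 to 0.08 on the log2 scale, whereas the median of all genes was 0.00. Of 37 inflammation mediators, Ptgs2 (cyclooxygenase 2) and the monocyte chemoattractant Ccl2 were called higher. Signals of Ccl2 ran from 14.4 to 191 with solids (median 118) and from 19.9 to 140 without (median 64.3). Its means were 158 ± 26.8 in MSH, 121 ± 54.3 in PM-HD, and 73.1 ± 42.4 in PM-LD, compared with 69.2 ± 54.3 in saline, 73.3 ± 9.60 in PM-L, and 51.2 ± 13.6 in zinc sulfate. Hence the difference (0.63, SE 0.26) was present with MSH (1.16, called) and was 0.57 and 0.17 in the other pairs, and it was not called without saline replicate 3. Ptgs2, which was 0.52 higher (SE 0.21), had medians of only 33.3 with solids and 12.2 without and was brighter than 7.78% of probe sets. Its difference was 0.92 in the MSH pair (called), 0.39 in the PM-HD pair, and 0.24 in the PM-LD pair. Without the MSH and saline arrays the Ptgs2 call was lost. Of 20 coagulation and complement genes, complement C3 was called higher (0.38, SE 0.18). For C3 the difference was 0.90 in the MSH pair (called), −0.04 in the PM-HD pair, and 0.28 in the PM-LD pair. The C3 call was lost with the Gapdh ratio as a covariate, although the difference was then 0.36, and when any of 15 arrays was left out. It was also lost without the MSH and saline arrays, where the difference was 0.12.

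Cathepsin S (Ctss), a lysosomal protease that processes the invariant chain, was the only gene called of 9 MHC class II genes and of 27 matrix proteases and inhibitors, at 0.39 higher (SE 0.18). It had similar values in all pairs (0.38, 0.31, and 0.49), but the call was lost when any of 9 arrays was left out. Mtf1, the metal-responsive transcription factor that induces metallothioneins, was the only one called of 17 genes of zinc and iron handling. Its signal was 383 to 617 with solids (median 568) and 222 to 657 without (median 413), a log2 difference of 0.35 (SE 0.10), whereas its other probe set gave −0.08. The Mtf1 call was lost without zinc sulfate replicate 4, without the PM-HD and PM-L arrays, with a pseudocount of 64, and as the mean of its probe sets. Hspa4, a member of the heat shock protein 70 family, was the only one of 24 heat shock genes (0.34 higher, SE 0.14), and Klf10 the only one of 30 immediate early genes. For Hspa4 the difference was 0.04 in the MSH pair, 0.48 in the PM-HD pair, and 0.50 in the PM-LD pair (called). The Hspa4 call was lost when any of 6 arrays was left out. It was also lost without the PM-HD and PM-L arrays and without the PM-LD and zinc sulfate arrays.

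Of 34 cell cycle genes, Birc5 and Top2a (DNA topoisomerase II) were called higher and Tyms (thymidylate synthase) was called lower (8.82%, compared with 2.06% of all genes), and the list median was 0.04. All of these 3 genes were dim. Birc5 signals were 106 to 193 with solids (median 152) and 31.5 to 149 without (median 98.9). All 12 arrays with solids were above the median of those without and 7 were above the highest, and the log2 difference was 0.56 (SE 0.13, adjusted p = 0.554 from limma). The difference was largest against PM-L (1.28) and was 0.03 in the MSH pair, and the call was lost without the PM-HD and PM-L arrays. Top2a was 0.39 higher (SE 0.14), but its other probe set was 0.38 lower. Tyms was 0.47 lower (SE 0.17), with signals at or under 18.3 with solids (median 10.85) and from 7.5 to 61.7 without (median 16.3). Its means were 16.2 ± 13.1 in saline and 16.8 ± 7.29 in zinc sulfate, and only that of PM-L was higher (37.4 ± 25.1). The differences were −0.18, −0.86, and −0.36 in the MSH, PM-HD, and PM-LD pairs. The Tyms call was lost without saline replicate 4, PM-L replicate 1, or PM-L replicate 4, and without the PM-HD and PM-L arrays.

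Of 52 genes of ion channels and transport, Kcne2 and Atp1b2 were called lower (3.85%, compared with 2.06% of all genes in either direction and 0.797% lower). Both genes were dim, and of all dim probe sets 4.11% were called. Kcne2, an accessory subunit of cardiac potassium channels, had signals from 31.4 to 180 with solids (median 65.1) and from 65.6 to 188 without (median 112). Of 12 arrays with solids, 6 were below the lowest array without, and only 1 was above the median of those without. Mean signals were 69.3 ± 26.4 in MSH, 83.6 ± 68.7 in PM-HD, and 62.1 ± 32.4 in PM-LD, compared with 119 ± 9.19 in saline, 114 ± 49.5 in PM-L, and 109 ± 30.5 in zinc sulfate. The 3 means with solids were thus the 3 lowest. The log2 difference was −0.71 (SE 0.22, adjusted p = 0.910 from limma), with −0.80, −0.53, and −0.79 in the pairs, and the call held without each array in turn. It was lost without the 6 arrays of high atrial transcripts. Other probe sets of Kcne2 were dimmer, with −0.22 and −0.09. Atp1b2, a subunit of the sodium pump, was 0.47 lower (SE 0.19), with −0.30, −0.87, and −0.24 in the MSH, PM-HD, and PM-LD pairs. Its mean signal was 47.9 in saline and in PM-HD, 38.6 in MSH, 64.35 in PM-LD, 102 in PM-L, and 76.75 in zinc sulfate. The Atp1b2 call was lost without saline replicate 2, PM-LD replicate 3, or zinc sulfate replicate 4, and without the PM-HD and PM-L arrays. It was also lost with a pseudocount of 64 and without the 6 arrays of high atrial transcripts. For soluble zinc, Atp1b2 was called higher (0.59, SE 0.20).

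**Figure D4:**
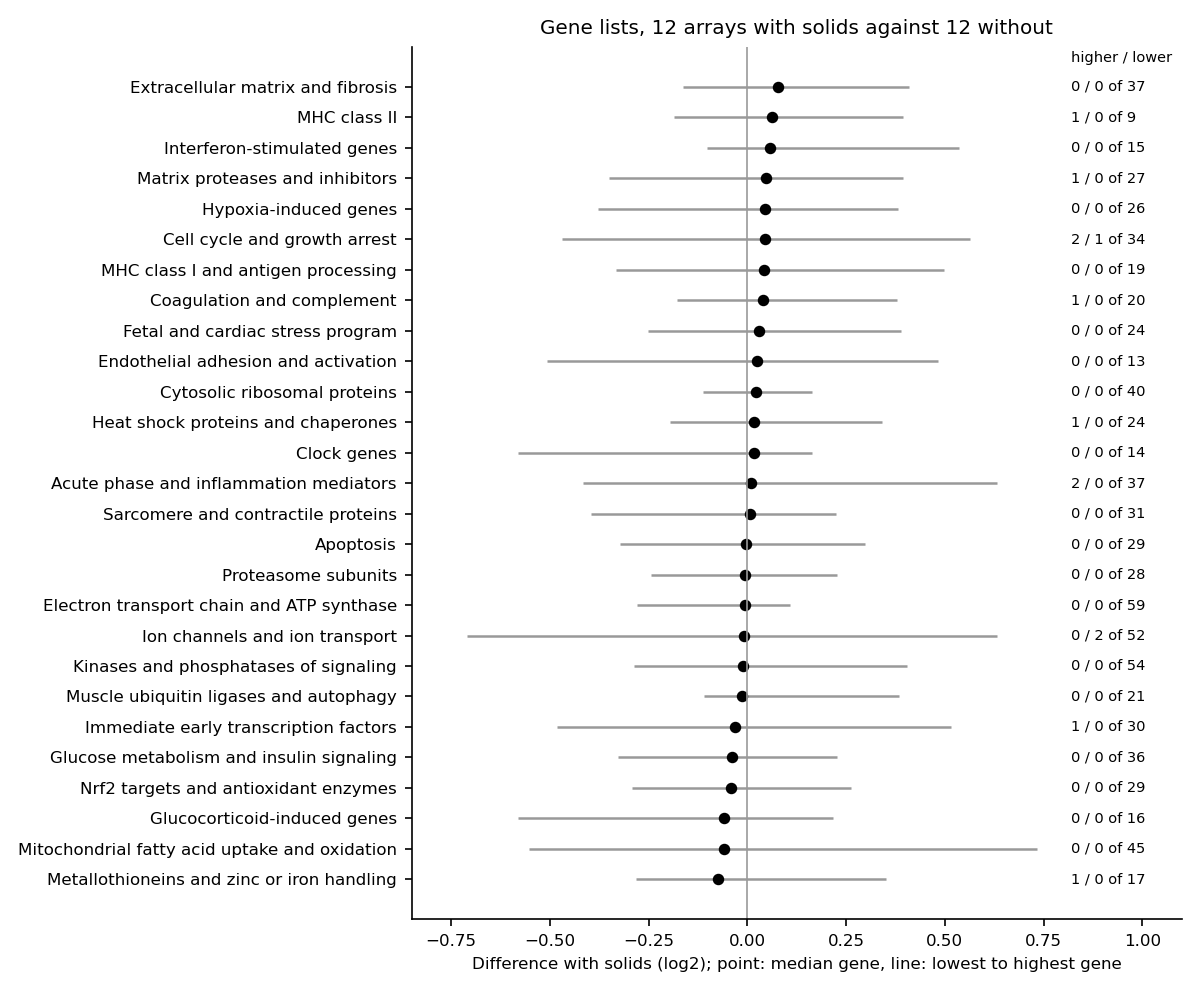
Log2 difference of 12 arrays with solids minus 12 without for 27 gene lists; points are the median gene, lines run from the lowest to the highest gene, and the text gives genes called higher and lower of those measured. All medians lie between −0.07 and 0.08, and no list has more than 3 genes called.

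No gene was called in 18 lists, among them endothelial adhesion (13 genes), interferon-stimulated genes (15), Nrf2 targets and antioxidant enzymes (29), extracellular matrix and fibrosis (37), the fetal and cardiac stress program (24), mitochondrial fatty acid uptake and oxidation (45), and electron transport and ATP synthase (59). Individual genes chosen only for their role in these responses, 37 in all, included 0 with unadjusted p under 0.05 (lowest 0.0678 for Fos), although the widths of their intervals differed. Heme oxygenase 1 (Hmox1) had a median signal of 219 with solids and 183 without, and a log2 difference of 0.26 (95% interval −0.10 to 0.63). Nqo1 differed by 0.05 (−0.19 to 0.28) and Gclc by 0.00 (−0.23 to 0.23). For the natriuretic peptide Nppb the difference was 0.12 (−0.43 to 0.67), for the slow myosin heavy chain Myh7 0.02 (−0.16 to 0.21), and for the collagen gene Col1a1 0.13 (−0.19 to 0.44). The calcium pump gene Atp2a2 had −0.02 (−0.20 to 0.15), and Cox4i1, a subunit of cytochrome c oxidase, 0.06 (−0.08 to 0.20). Of these intervals, those of Nqo1, Gclc, Myh7, Atp2a2, and Cox4i1 therefore did not reach a difference of 25% (0.32 on the log2 scale). Those of Hmox1, Nppb, and Col1a1 did, as did those of the dim genes Il6 (0.55, −0.09 to 1.19) and Tnf (0.46, −0.06 to 0.98).

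**Figure D5:**
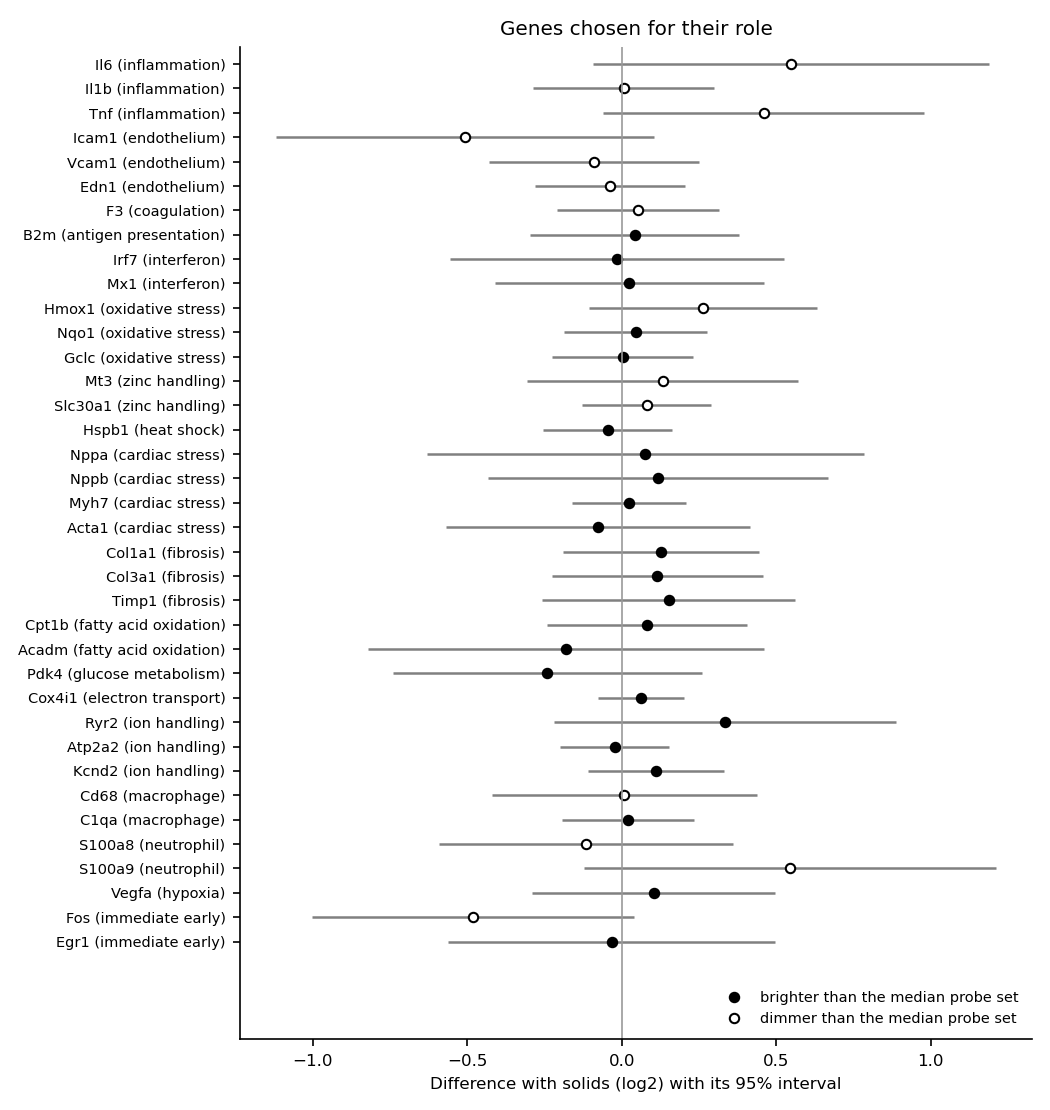
Log2 difference of 12 arrays with solids minus 12 without, with its 95% interval from limma, for 37 genes chosen for their role; filled points are brighter and open points dimmer than the median probe set. Every interval includes 0, and the widest is that of the bright gene Nppa, followed by those of the dim genes S100a9 and Il6.

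Markers of other cell types were counted in the same way. Since whole tissue was measured, fewer cells of a type and less RNA per cell cannot be told apart. Over all 12 arrays a side, 0 of 10 macrophage and 0 of 5 neutrophil markers were called, lists too short to be read against the 2.06% of all genes. Within pairs, 2 macrophage markers were called higher in PM-LD than in zinc sulfate and 1 was called lower in PM-HD than in PM-L. The summed signal of the macrophage markers was between 3251 and 5933 with solids and between 3008 and 6015 without, and that of the neutrophil markers between 474 and 1031 and between 478 and 946. Cd68 differed by 0.01 (95% interval −0.42 to 0.44) and C1qa by 0.02 (−0.19 to 0.23). The value of C1qa, a subunit of complement C1q made by macrophages, combined −0.10 in the MSH pair, −0.31 in the PM-HD pair, and 0.47 in the PM-LD pair, where it was called. Of 15 markers of T cells and natural killer cells, Klrd1 was higher (0.35, SE 0.14) and Cd3d lower (−0.59, SE 0.27). Of 9 mast cell markers, Mcpt1 was called higher (0.64, SE 0.30), but its signals ran from 6.7 to 176 with solids and from 8.3 to 161 without. Calls for Cd3d and Mcpt1 were each lost when any of 15 arrays was left out, and that for Klrd1 without any of 4 (PM-LD replicates 1 and 3, PM-L replicate 4, and zinc sulfate replicate 1). Of 13 skeletal muscle markers, Myod1 was called higher (0.62, SE 0.21) but was dim, with signals of 6.5 to 84.2 with solids and 3.8 to 35.2 without. No gene was called of the endothelial (11), fibroblast (12), smooth muscle (11), ventricular (9), or atrial (9) markers.

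Cdkn1a, Ptprm, RT1-CE5, and Fam53a were examined since they were known from earlier results of these arrays. The paper names Cdkn1a (decrease) and Ptprm (increase) as affected by both MSH and PM-HD, from contrasts with saline on other values. In the same contrasts here, Cdkn1a differed by −0.40 (SE 0.23) in MSH and −0.35 (SE 0.23) in PM-HD. Ptprm differed by 0.29 (SE 0.17) and 0.17 (SE 0.17), and none of these was called. The cell cycle inhibitor Cdkn1a and the receptor phosphatase Ptprm did not differ beyond their spread between solids and no solids, with −0.08 (SE 0.13) and 0.05 (SE 0.10). Cdkn1a means were 1076 ± 193 in MSH, 1128 ± 161 in PM-HD, 931 ± 180 in PM-LD, 1415 ± 185 in saline, 1068 ± 363 in PM-L, and 897 ± 121 in zinc sulfate. Its highest mean was thus that of saline, and the groups with solids lay among the others. RT1-CE5, an MHC class I gene of a family whose members are alike enough to share probes, had means of 819 ± 405 in MSH and 829 ± 221 in PM-HD but 326 ± 38.0 in PM-LD, close to saline (284 ± 73.4) and below PM-L (579 ± 325) and zinc sulfate (583 ± 423). The log2 difference for solids was 0.50 (SE 0.26) and was not called. It was 1.37 in the MSH pair (called), 0.64 in the PM-HD pair, and −0.52 in the PM-LD pair. Without MSH replicate 1, PM-L replicate 4, zinc sulfate replicate 1, or zinc sulfate replicate 3, RT1-CE5 was called for solids.

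Of 30 genes called for solids by their brightest probe set and named here, 29 were still called with the log2 Gapdh ratio as a covariate and 15 without the 9 arrays of high Gapdh ratio, which left 15 arrays. The dimmer probe sets of Col2a1 and Rbms2 were not counted among them. Without each array in turn, 13 kept their call throughout, and 2 (Rbfox2 and Crlf2) kept it under every other setting that gave them a value. All 30 were named for being called on these same arrays, so these counts are partly fixed by the selection. They do not measure whether the differences are real, and no probe set passed an adjusted p on all arrays.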

How the data were processed

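Per the labels and the paper, values were deposited as linear signal intensity from Microarray Suite 5.0 (MAS5), run by the authors with default settings; the arrays had trimmed means of 500.1 to 500.2 and signals from 0.1 to 61915. The paper tested robust multiarray averages with limma, which were not used here. Controls (57) were left out, and 15866 of 15923 probe sets were tested. Signals plus 16 were put on the log2 scale, quantile normalized over 24 arrays, and fitted with 1 mean per group in limma 3.58.1 (R 4.3.3); adjusted p is Benjamini-Hochberg over all probe sets. Folds are on the log2(signal + 16) scale, which understates differences of dim genes, and printed signals are not quantile normalized. The number of arrays limits the precision. Replicates were separate rats. Array measures were compared by permutation with 100000 resamples (scipy 1.17.1). The procedure was tested on simulated data.

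Probe sets carried 1 symbol (12783), several (312), or none (2771); 12748 of the first kind matched RefSeq (GRCr8, names only). A gene was represented by the brightest of its probe sets. Named genes were the 10 largest in each direction that were bright, called, and of 1 sign in 3 pairs; up to 3 called genes per list by lowest p; any at adjusted p under 0.05; 4 known from earlier results; and the 3 bright genes of lowest p for the difference between the PM-HD and MSH pairs. Crlf2, Rbms2, Col2a1, and the genes of the zinc contrast were added after their values were seen, and genes named for their role were chosen without regard to their values. The groups, lists, and tests were all chosen with earlier results of these data known. Alternatives were a pseudocount of 1 or 64, median centring, a minimum mean signal of 100, an intensity trend with a robust prior, 2 pooled groups, the replicate number as a block, other fold limits, a two-sample test with unequal variances, Gapdh ratio or atrial mean as a covariate or as a reason to leave arrays out, leaving out each pair or each array, and averaging every probe set per gene. For the gene lists and the zinc contrast, most of these were added after seeing the data.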

Additional observations from a re-analysis of the deposited data

Results flagged for a closer look

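In groups of 4 arrays, 1 array lay far from the other 3 in 16 of 258 sets of values (6.20%, over 37 named genes and 6 array measures in 6 groups), and chance gives about 5%. The number is the gap to the nearest other array as a share of the range of the group. On the log2 scale these were Fry in MSH replicate 4 (0.879, signal 353 and at least 1461 in the others), Ddx6 in PM-L replicate 4 (0.860, 1410 and at most 738), Swi5 in zinc sulfate replicate 3 (0.900, 505 and at least 725), and Fam53a in MSH replicate 1 (0.926, 327 and at least 359). Klf10 in saline replicate 4 (0.993) had a signal of 77.8, with at least 328 in the others. Cryl1 in zinc sulfate replicate 3 (0.834) had 217, with at least 846 in the others, and Mtf1 in saline replicate 4 (0.839) had 657, with at most 452. Kcne2 in PM-LD replicate 4 (0.852) had 108, with at most 58.5, Mcpt1 in PM-HD replicate 1 (0.923) had 18.9, with at least 71.2, and Aph1a in saline replicate 3 (0.850) had 1006, with at most 887.

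Among array measures, zinc sulfate replicate 3 had a high log2 Gapdh ratio (0.954, 2.48 and at most 0.60 in the others) and a high median signal (0.853, 257 and at most 216). Zinc sulfate replicate 2 had a high atrial mean (0.917, 11.7 and at most 9.04). MSH replicate 3 had a high log2 actin ratio (0.862, 1.77 and at most 1.30), PM-L replicate 4 a low log2 hexokinase ratio (0.868, 1.22 and at least 1.87), and PM-HD replicate 2 a high one (0.837, 3.10 and at most 1.75). The part of these arrays in the differences above was not tested beyond leaving each of them out.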

How the results depend on the processing

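The count of probe sets called for solids (394) stayed within 1.5 times, at 298 to 491, under 13 of 17 settings, with 53.5% to 62.4% of calls higher. It was 173 with a pseudocount of 64 (75.7% higher), 170 at a mean signal of at least 100 (74.1% higher), 668 without fold limits, and 602 without the PM-LD and zinc sulfate arrays. List genes called (12) were 5, 7, 22, and 28 under these 4. At a mean signal of at least 100, the MSH, PM-HD, and PM-LD pairs gave 277, 402, and 281, PM-HD minus PM-L against MSH minus saline 273, and zinc 317. Zinc gave 337 with a pseudocount of 64, 948 without fold limits, and 1192 without arrays of a Gapdh ratio above 3. The difference between these pairs gave 695 with the Gapdh ratio as a covariate.

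At adjusted p, solids gave 0 under all settings that kept 24 arrays or left out a pair or the arrays of high Gapdh ratio or atrial mean. The PM-HD pair gave 0 with the Gapdh ratio or atrial mean as a covariate or without arrays above 3 or 11, the MSH pair gave 1 without arrays above 11, and the difference between the PM-HD and MSH pairs gave 1 without arrays above 3. Zinc, with 4, gave 1 with a pseudocount of 1, with the replicate block, or with the atrial mean as a covariate, 2 with median centring, 12 with the Gapdh covariate, and 0 without arrays above 3 or 11.

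Leaving out each array in turn gave 353 to 482 for solids, 10 to 18 list genes, 470 to 587 for MSH, 564 to 869 for PM-HD, 483 to 633 for PM-LD, 450 to 562 for the difference between the PM-HD and MSH pairs, and 494 to 716 for zinc. At adjusted p the ranges were 0 to 1 for solids, MSH, and PM-LD, 0 to 3 for PM-HD, 0 to 0 for the difference between the PM-HD and MSH pairs, and 1 to 6 for zinc. The probe set past it was of Col2a1 for solids without saline replicate 2, of Grk1, Caly, and Vom1r93 for MSH without saline replicate 2, MSH replicate 1, and MSH replicate 3, and of Slc4a4 for PM-LD without PM-LD replicate 3. Signs turned for Dbp (0.078 without arrays of a Gapdh ratio above 3 and 0.36 without the PM-HD pair), Ptprm (−0.065 without arrays above 11 and −0.062 without the MSH pair), Cdkn1a (0.088 without the MSH pair), Stxbp2 (0.12 without the PM-HD pair), and Mplkip (0.064 as the mean of its probe sets), and apart from Mplkip none of these was called. The cause was not tested.

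Same-numbered arrays of the pairs correlated at −0.07 to 0.52 in their deviations from group means, over 0.1 in not all of 12, and 4 of 12 correlated best with their own number, so the numbers were not taken as pairs. With the replicate block, 423 probe sets were called for solids. Of the 394 calls for solids, 68 were of probe sets brighter than the median.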
